A study of Homo sapiens with 34 samples.

Results

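Among 11 cell lines of mantle cell lymphoma (MCL), 5 lines held next to no reads of BCL2L11 and 6 held more. BCL2L11 encodes BIM, a pro-apoptotic protein. The lines were chosen by the BCL2L11 value itself: lines below 6 on the deposited log2-like scale, where 4.55 stands for 0 reads, were called BCL2L11-low, and lines at or above 6 were called BCL2L11-present. The BCL2L11-low lines were Jeko-1, Mino, SP-49, SP-53 and Z-138. The BCL2L11-present lines were GRANTA519, HBL-2, JVM2, MAVER-1, REC-1 and UPN1. They were taken from a series of 34 established human B-cell lymphoma lines, with 1 RNA sequencing library per line and total RNA as the starting material. The 23 other lines came from diffuse large B-cell lymphoma (DLBCL), 14 germinal centre B-cell (GCB) and 6 activated B-cell (ABC), and from Burkitt lymphoma (BL, 3 lines). No treatment or genetic change made in the laboratory is named in the labels for any line. Lines served as replicates, so the p-values measure the spread between lines and not between cultures of a line.

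MCL is a B-cell tumour driven by a translocation that places CCND1, the cyclin D1 gene, under immunoglobulin control. BIM belongs to the BH3-only proteins, which bind the survival proteins BCL2, BCL2L1, MCL1 and BCL2A1 and also activate the pore-forming effectors BAX and BAK1. In lymphocytes BIM is required for the death of cells that are autoreactive or deprived of growth factors, and homozygous loss of the gene has been described in MCL cell lines. BCL2L11 lies in band 2q13 (ENSG00000153094, GRCh38, chromosome 2, 111120914 to 111168445, plus strand). The RefSeq promoter of the gene is shown because its transcript defines the division. It covers 250 bases before to 50 bases after the annotated start, chr2:111120664-111120963 on the plus strand of GRCh38.p14, with the forkhead core motif GTAAACA, searched on both strands, in capitals.
BCL2L11: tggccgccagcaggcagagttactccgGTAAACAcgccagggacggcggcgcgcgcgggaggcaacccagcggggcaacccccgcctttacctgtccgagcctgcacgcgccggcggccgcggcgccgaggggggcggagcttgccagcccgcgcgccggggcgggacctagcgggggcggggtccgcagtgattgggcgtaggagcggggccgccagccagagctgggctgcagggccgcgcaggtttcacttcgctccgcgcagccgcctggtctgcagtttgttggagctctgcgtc
The motif occurred once in this window, and 3.42% of the 35116 RefSeq promoters of the same length held it. The window had 39 CG dinucleotides, a number reached or passed by 8.71% of promoters, whose median was 14. A motif match is a description of letters and not a measured binding site.

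BCL2L11 had 0 reads in Jeko-1, 1 read in SP-53, 2 reads in SP-49, 2 reads in Mino and 3 reads in Z-138. These counts came from libraries of 60.1 to 109 M reads (M for 1e6), and the 0 reads of Jeko-1 allow up to 0.0499 reads per M reads, from counting error alone. The BCL2L11-present lines formed a graded series rather than a group at a single level. UPN1 had 62 reads, JVM2 199, GRANTA519 1579, REC-1 2063, HBL-2 9986 and MAVER-1 20543, from libraries of 65.6 to 103 M reads. On the deposited scale the values nearest the threshold were 4.87 in Z-138 below it and 6.02 in UPN1 just above it. UPN1 therefore counted as BCL2L11-present at 0.81 reads per M reads, against 249 reads per M reads in MAVER-1. A BCL2L11 value chose the lines, so its difference was not tested.

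**Figure D1:**
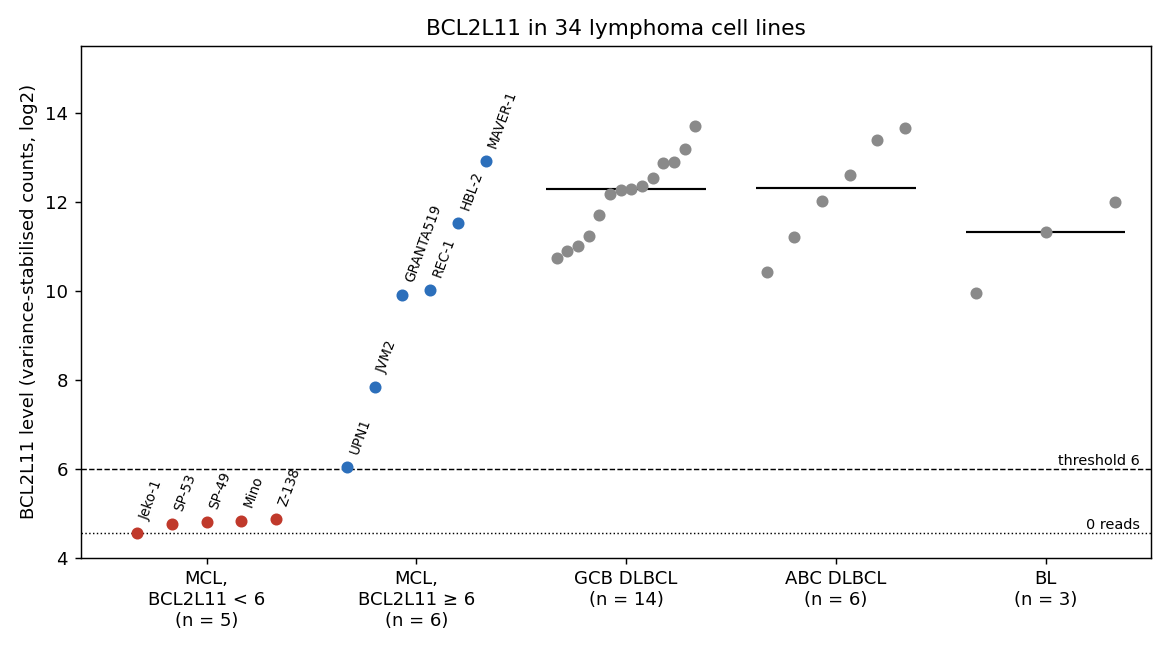
BCL2L11 level of each of the 34 lines (variance-stabilised counts, log2), by group, with the median of each other pathology as a bar, the threshold of 6 as a dashed line and 0 reads as a dotted line. The 5 BCL2L11-low lines lie at 4.55 to 4.87, the BCL2L11-present lines spread from 6.02 to 12.92, and no line of the other pathologies lies below 9.96.

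In the 23 lines of the other pathologies BCL2L11 lay between 9.96 and 13.69, with a median of 12.18. Of the BCL2L11-present MCL lines, MAVER-1 (12.92), HBL-2 (11.52) and REC-1 (10.02) fell within that range. GRANTA519 (9.91) lay just below its lower end, and JVM2 (7.84) and UPN1 (6.02) lay further below it.

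The likeness of the libraries bears on every comparison that follows. SP-49 and SP-53 were near-identical, with a Pearson correlation of 0.97 over 16321 genes and 270 genes more than 2 log2 units apart. The other 54 pairs of MCL lines had correlations of 0.76 to 0.92 and 939 to 3730 such genes. The reads of SP-49 and SP-53 differed by more than sampling noise (chi-square per degree of freedom 551, against 674 to 3274 in the other pairs), so they were not a single library deposited in duplicate. They were averaged and counted as 1 unit, which left 4 BCL2L11-low units against 6 BCL2L11-present lines. JVM2 had the lowest correlations, 0.76 to 0.83 with 9 lines and 0.863 with GRANTA519, while pairs without it went down to 0.857. The labels mark every BCL2L11-low line as re-analysed from earlier data, but HBL-2, MAVER-1 and UPN1 are unmarked, so the mark is partly confounded with the division.

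**Figure D2:**
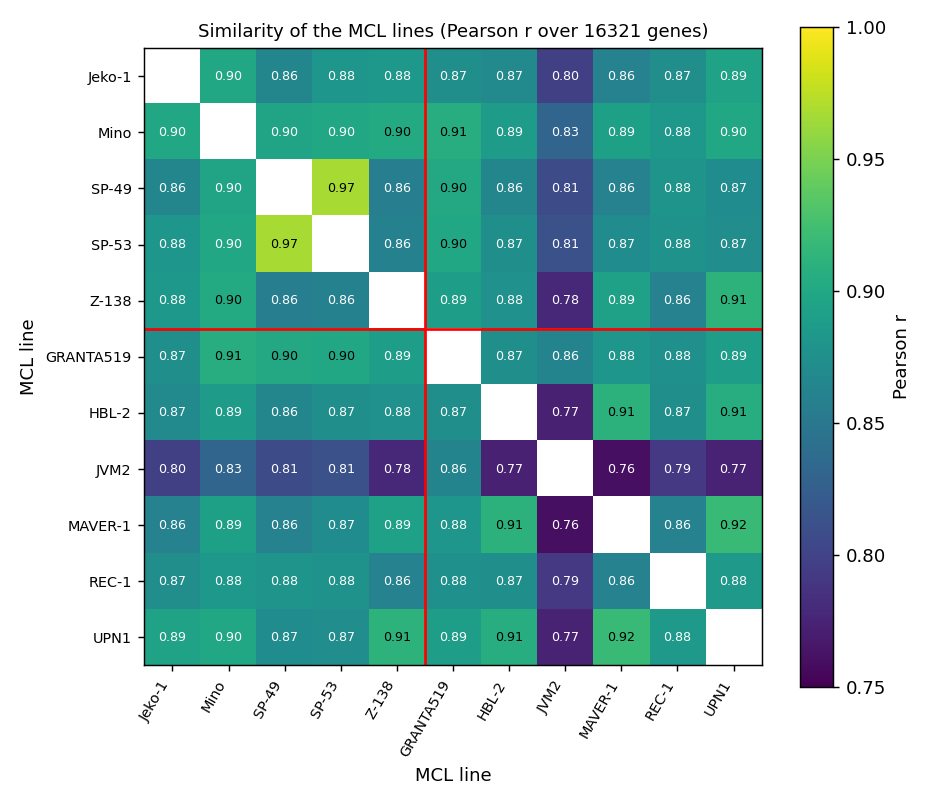
Pearson correlation between the 11 MCL lines over 16321 genes, BCL2L11-low lines first, with red lines between the groups. SP-49 and SP-53 share the highest value, 0.97, and the row of JVM2 holds the lowest values, down to 0.76.

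The MCL identity of the lines was checked with its defining genes. CCND1 ran from 15.27 to 17.35 in the BCL2L11-low lines and from 12.59 in JVM2 to 17.20 in the BCL2L11-present lines. SOX11, a transcription factor used as an MCL marker, ran from 10.63 to 13.09 in the BCL2L11-low lines and from 9.26 to 10.93 in 5 BCL2L11-present lines, while JVM2 had 4.84, or 1 read. The B-cell genes PAX5 and MS4A1 were present in all 11 lines. The 6 T-cell markers summed to 327 to 8370 normalised counts in the BCL2L11-low lines and to 5.61 to 8561 in the BCL2L11-present lines, none of the 6 being at 0 throughout. The 6 myeloid markers summed to 4.07 to 64.5 normalised counts in the BCL2L11-low lines and 7.48 to 1005 in the BCL2L11-present lines, and the 6 erythroid and stromal markers summed to 24.1 to 2098 in the BCL2L11-low lines and 17.0 to 502 in the BCL2L11-present lines. The filter on low values left 4 T-cell, 1 myeloid and 1 erythroid or stromal marker to be tested, and none was called. Of the T-cell markers, CD7 had 12313 reads in Mino and 111 to 399 in the other BCL2L11-low lines, against 0 to 149 in the BCL2L11-present lines (difference 3.33 ± 1.01, adjusted p = 0.98). CD3D had no reads in Mino, SP-49, SP-53, HBL-2 and MAVER-1, and CD2 had at most 3 reads in any BCL2L11-low line. The part of these markers in the results was not tested, and in bulk RNA fewer cells of a type and less RNA per cell cannot be told apart.

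The question was which genes go with the near absence of BCL2L11 reads. With limma on 16320 genes, BCL2L11 itself left out, no gene differed between BCL2L11-low and BCL2L11-present lines at an adjusted p below 0.05 (0% lower and 0% higher). At an unadjusted p below 0.05 there were 699 genes, or 4.28% of those tested. The count was also 0 with limma-voom on recovered reads, where 701 genes had an unadjusted p below 0.05. The median difference of all genes was 0.03, and 52.9% of genes lay above 0. The median standard error of a difference was 0.43 log2 units with 4 and 6 units. Differences are given as BCL2L11-low minus BCL2L11-present, with that standard error, and the adjusted p-values are those of limma with Benjamini-Hochberg adjustment.

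BCL2L11 stood alone in its pattern of reads. Of the 31975 genes in the table it was the 1 gene with at most 10 reads in all 5 BCL2L11-low lines and at least 50 reads in all 6 BCL2L11-present lines. The opposite pattern was met by 0 genes. This pattern is fixed for BCL2L11 by the division, and it is given as the background against which other genes can be read. Allowing any 3 of the 5 BCL2L11-low lines added 5 genes, namely IFI44, DDX60, TRIQK, FAM83H and SDR42E1. Here SP-49 and SP-53 count as separate lines, and TRIQK qualified through both of them and Mino, with 371 reads in Jeko-1 and 1347 in Z-138. In DDX60, an interferon-induced helicase, Jeko-1, Mino and Z-138 had 0 to 3 reads, whereas SP-49 had 2189 and SP-53 1667. SDR42E1, which encodes a dehydrogenase of the short-chain family, and FAM83H had few reads in the same 3 lines.

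The next question was whether neighbours on 2q13 also had few reads in the BCL2L11-low lines. The values are RNA reads, and whether BCL2L11 was deleted or silent in these lines was not tested. Within 3 Mb of the start of BCL2L11 the table held 71 other genes with a RefSeq position, and 35 of them passed the filter on low values. None was called, and 1 of the 35, ACOXL, had BCL2L11-low lines that did not overlap the BCL2L11-present lines. Over all genes tested, 0.362% were separated in this direction and 0.398% in the other. The differences of the 35 genes ran from -1.34 to 0.69, with a median of -0.29, and 25 lay below 0 and 10 above. For all genes tested the median was 0.03, and 52.9% lay above 0. Whether the neighbours depart from that background was not tested.

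ACOXL encodes an acyl-CoA oxidase-like protein and ends 5′ of BCL2L11 (chromosome 2, 110732573 to 111118548). Its level was 5.47 in Jeko-1, 5.63 in Mino, 5.36 in SP-49, 5.45 in SP-53 and 5.46 in Z-138. In the BCL2L11-present lines it was 7.56 in GRANTA519, 7.27 in HBL-2, 6.10 in JVM2, 6.42 in MAVER-1, 6.67 in REC-1 and 6.97 in UPN1. The means were 5.49 ± 0.096 (SD, n = 4) in BCL2L11-low units and 6.83 ± 0.54 (SD, n = 6) in BCL2L11-present lines.

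The difference in ACOXL was -1.34 ± 0.34, with a limma adjusted p of 0.98. ACOXL passed the filter on low values through the BCL2L11-present lines, since Mino was the 1 BCL2L11-low line above it, so the gene is described and not further tested. The separation was narrow in reads, since Mino had 31 reads and JVM2 32, in libraries scaled differently. The difference ran from -1.02, with the threshold at 7, to -2.86, with limma-voom on recovered reads. In the 23 other lines, all with ample BCL2L11, ACOXL had a median of 5.55, and 3 lines had no read. Its range there, 4.55 to 8.13, held the BCL2L11-low values and at its upper end passed the highest MCL line, GRANTA519 (7.56). Several of those libraries were shallow, such as NU-DHL-1 with 2.55 M reads, where a single read stands at 5.63. The low end and the median of that range are therefore uncertain.

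ACOXL-AS1, an antisense RNA whose start lies at -0.0226 Mb from that of BCL2L11, had 139 reads in MAVER-1, 51 in HBL-2 and 0 reads in the 9 other MCL lines, 4 of them BCL2L11-present. Those 2 lines also had the most BCL2L11. Whether reads were assigned by strand is not given in the sources used here, so reads of ACOXL and ACOXL-AS1 may be mixed. MIR4435-2HG, a long non-coding RNA 0.075 Mb after the start of BCL2L11, had 7 reads in Jeko-1, 7 in Mino, 37 in SP-49 and 32 in SP-53, but 1967 in Z-138. In the BCL2L11-present lines it had 9 reads in GRANTA519, 151 in JVM2, 132 in REC-1, 211 in UPN1, 417 in MAVER-1 and 632 in HBL-2. Z-138 was thus the highest of all 11 lines for this neighbour, and GRANTA519 was among the lowest although it was BCL2L11-present. MIR4435-2HG shares much of its sequence with CYTOR on the short arm of chromosome 2, so its counts are uncertain.

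BUB1, a mitotic checkpoint kinase at -0.48 Mb from the start of BCL2L11, was expressed in every line. It lay between 11.33 and 14.72 in the BCL2L11-low lines and between 12.02 and 14.70 in the BCL2L11-present lines (difference -0.21 ± 0.61). ANAPC1, a subunit of the anaphase-promoting complex at 0.65 Mb, lay between 10.14 and 11.48 in the BCL2L11-low lines and between 9.96 and 11.97 in the BCL2L11-present lines (difference -0.44 ± 0.44). Beyond ACOXL, GCC2 (-0.84 ± 0.31) and LIMS1 (-0.82 ± 0.35) had an unadjusted limma p below 0.05. GCC2 and LIMS1 lie at -2.67 and -2.59 Mb from BCL2L11, and both groups overlapped in them. With ACOXL these were 3 of the 35 neighbours tested, against 4.28% of all genes tested. No neighbour combined at most 10 reads in all 5 BCL2L11-low lines with at least 50 in all 6 BCL2L11-present lines.

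**Figure D3:**
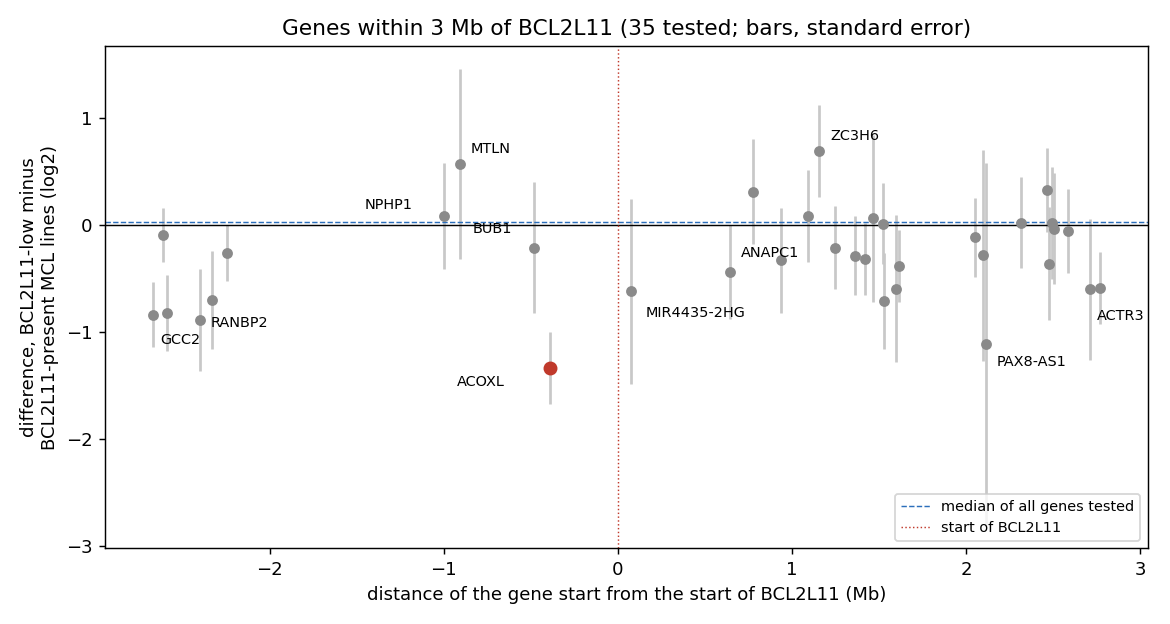
Difference between BCL2L11-low and BCL2L11-present MCL lines (log2, with standard error) for the 35 genes tested within 3 Mb of BCL2L11, against the distance of their start from that of BCL2L11. ACOXL, in red at -1.34, is the gene whose lines did not overlap, and most of the others lie within 1 log2 unit of 0.

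By the rule for named genes, the 12 largest differences in each direction were taken from the genes whose lines did not overlap, 59 lower and 65 higher apart from BCL2L11. None of the 24 passed the threshold. Some passed the filter on low values through the lines of a single group. PDPN did so through the BCL2L11-low lines. MAP3K13, IFI44, RBMS3, ENSG00000255893, ACOXL and DUBR needed the BCL2L11-present lines. The p-values of these genes are descriptive. None reversed direction under the alternatives in which it was tested, 4 of them being left out by a stricter filter, but the choice of genes that do not overlap largely fixes that direction. The sizes were less stable: with the threshold at 8, which puts UPN1 and JVM2 among the low lines, 17 of the 24 differences moved by over 1.5 times.

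MAP3K13 came closest to a call among the genes lower in BCL2L11-low lines. It encodes a leucine zipper kinase that acts upstream of JNK. It had 3 reads in Jeko-1, 19 in Mino, 29 in Z-138 and 0 in SP-53, but 616 in SP-49. The BCL2L11-present lines had 626 reads in REC-1, 719 in UPN1, 794 in GRANTA519, 1057 in JVM2, 1082 in MAVER-1 and 1293 in HBL-2. The difference was -3.36 ± 0.43 (limma adjusted p = 0.096), and without SP-49 it was -3.79 and passed (adjusted p = 0.022). Over all alternatives the adjusted p of MAP3K13 ran from 0.022 to 0.98. MAP3K13 was thus among the genes on which SP-49 and SP-53 disagreed.

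The other genes lower in BCL2L11-low lines did not reach the threshold either, each with an adjusted p of 0.98. ALKBH3, a demethylase of alkylated nucleic acids (-2.93 ± 0.81), had 0 reads in Mino and SP-53 but 869 to 1623 in Jeko-1, Z-138 and SP-49. The BCL2L11-present lines had 1942 to 4182 reads of it. RBMS3, an RNA-binding protein (-1.67 ± 0.59), had 0 reads in all 5 BCL2L11-low lines, against 1 read in UPN1 and up to 820 in HBL-2 among the BCL2L11-present lines, so its fitted difference depends on the value given to 0 reads. RBMS3 passed the filter on low values through the BCL2L11-present lines alone, so its adjusted p is descriptive.

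PAG1, a membrane adaptor that recruits the kinase CSK (-2.48 ± 0.65), lay between 6.23 and 8.89 in the BCL2L11-low lines and between 8.90 and 12.24 in the BCL2L11-present lines. ETS1, a lymphoid transcription factor (-1.14 ± 0.25), lay between 11.24 and 12.58 in the BCL2L11-low lines and between 12.76 and 13.62 in the BCL2L11-present lines. IFI44, an interferon-induced gene (-3.25 ± 1.31), rested partly on JVM2 with 13845 reads, and its difference was -2.15 without that line and -0.72 with the threshold at 8. The rest were the calcium-binding grancalcin gene GCA (-2.26 ± 0.76), the mitochondrial outer membrane gene SYNJ2BP (-2.04 ± 0.41), CTNND1 (-1.45 ± 0.43), which encodes p120 catenin, ENSG00000255893 (-1.36 ± 0.33), ACOXL and the non-coding RNA DUBR (-1.14 ± 0.34, and -0.32 with the threshold at 8).

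PDPN had the largest difference among the genes higher in BCL2L11-low lines. It encodes podoplanin, a mucin-like membrane protein known from lymphatic endothelium. It had 1816 reads in Jeko-1, 217 in Mino, 3151 in SP-49, 44 in SP-53 and 2693 in Z-138. Of the BCL2L11-present lines, GRANTA519 had 16 reads and the other 5 had 0. All 5 BCL2L11-low lines lay above all 6 BCL2L11-present lines, although SP-53 was close to GRANTA519 (5.84 against 5.44). The difference was 4.19 ± 0.61 (limma adjusted p = 0.17), and it passed without Mino (4.78, adjusted p = 0.048). PDPN entered the tests through the BCL2L11-low lines alone, since no BCL2L11-present line lay above the filter on low values. Its p-values therefore describe the gene and are not independent support. Over all alternatives the limma adjusted p of PDPN ran from 1.04e-08, with all 34 lines in the fit, to 0.9997. In the fit with all 34 lines the spread is shared with the other pathologies. The lowest value therefore rests partly on lines near 0 reads and not on the MCL lines alone. Elsewhere in the series PDPN had 0 reads in 18 of the 23 other lines and a level of at most 5.20. Several of those libraries were shallow, such as NU-DHL-1 with 2.55 M reads and OCI-Ly1 with 4.84 M, against 60.1 M or more in the MCL lines. A single read stands at 5.63 in NU-DHL-1, so 0 reads in such libraries says little about PDPN.

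JAM2, a junctional adhesion molecule, lay between 8.32 and 11.11 in the BCL2L11-low lines and between 5.34 and 8.01 in the BCL2L11-present lines (2.82 ± 0.66). PDCD1, the gene of the inhibitory receptor PD-1, lay between 9.63 and 11.23 in the BCL2L11-low lines and between 6.29 and 8.92 in the BCL2L11-present lines (2.41 ± 0.58). MGMT, which removes alkyl groups from guanine in DNA, lay between 10.24 and 12.30 in the BCL2L11-low lines and between 6.56 and 9.83 in the BCL2L11-present lines (2.14 ± 0.64, and 0.62 with the threshold at 8).

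The other genes on the higher side were CRACD (2.44 ± 0.51), an actin regulator, the homeobox repressor TGIF1 (2.36 ± 0.68), the adenylosuccinate synthase ADSS1 (2.29 ± 0.56) and CD248 (2.25 ± 0.50), which encodes endosialin. They also included FAM131C (2.0 ± 0.40), ANKMY2 (1.98 ± 0.85), the membrane protein TTYH3 (1.87 ± 0.77), which was 1.21 without JVM2 and 0.092 with the threshold at 8, and the Wnt receptor FZD2 (1.83 ± 0.50). All 11 genes apart from PDPN had a limma adjusted p of 0.98.

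**Figure D4:**
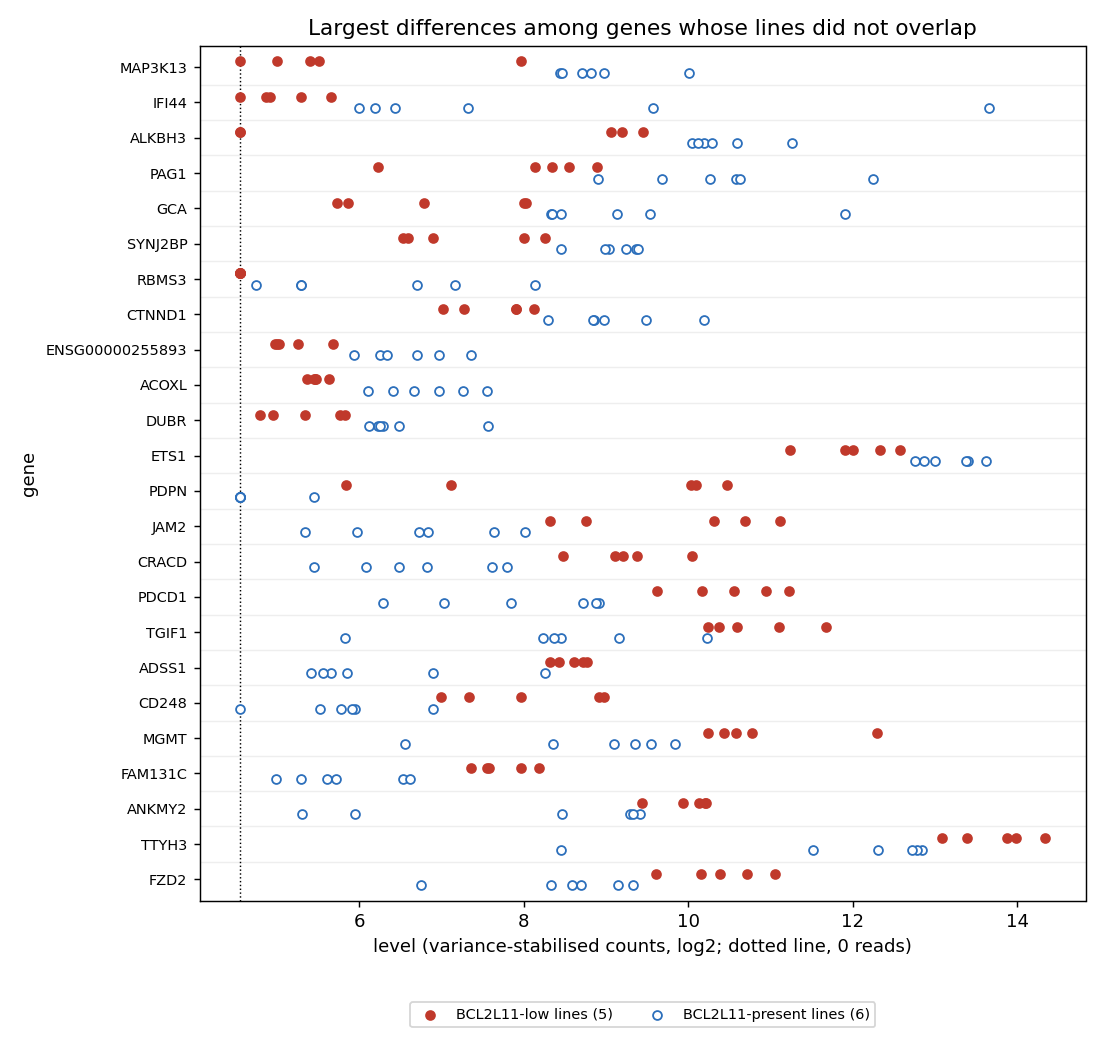
Levels of the 24 named genes in each MCL line (variance-stabilised counts, log2), with filled points for the 5 BCL2L11-low lines above open points for the 6 BCL2L11-present lines, and a dotted line at 0 reads. The points of the groups do not overlap in any row because the genes were chosen so, and MAP3K13, ALKBH3 and PDPN show the widest spread within the BCL2L11-low lines.

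The BCL2 family was examined for other members that moved with BCL2L11. Of the 7 other BH3-only genes none was called, with a median difference of 0.19, and none was separated between the groups. BMF, a BH3-only gene whose product binds dynein light chain 2, was 11.27 in Jeko-1, 10.03 in Mino, 11.53 in SP-49, 12.17 in SP-53 and 11.35 in Z-138. The BCL2L11-present lines had 9.51 in UPN1, 9.62 in REC-1, 9.90 in GRANTA519, 10.19 in MAVER-1, 10.23 in JVM2 and 10.48 in HBL-2. Mino alone overlapped the BCL2L11-present lines, and the difference was 1.14 ± 0.37 (limma adjusted p = 0.98, unadjusted p = 0.010). BBC3, which encodes PUMA, lay between 9.30 and 10.48 in the BCL2L11-low lines and between 7.30 and 11.96 in the BCL2L11-present lines. PMAIP1, which encodes NOXA, lay between 10.90 and 13.32 in the BCL2L11-low lines and between 10.07 and 14.46 in the BCL2L11-present lines.

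Of the 6 survival genes none was called, with a median difference of 0.20. BCL2 lay between 11.69 and 12.64 in the BCL2L11-low lines and between 6.88 in UPN1 and 14.33 in MAVER-1 in the BCL2L11-present lines (difference 0.04 ± 1.22). UPN1, the BCL2L11-present line with the fewest BCL2L11 reads, was also the MCL line with the lowest BCL2. MCL1 lay between 12.27 and 13.58 in BCL2L11-low lines and between 11.97 and 12.85 in BCL2L11-present lines. Its difference was 0.27 ± 0.29. BCL2A1 ranged from 0 reads in Z-138 to 12.34 in SP-49 in the BCL2L11-low lines and from 5.03 in UPN1 to 14.96 in JVM2 in the BCL2L11-present lines. Of 14 tested effectors, caspases and their inhibitors none was called (median difference -0.19). BAX (0.06 ± 0.51) and BAK1 (-0.53 ± 0.37) overlapped between the groups.

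Regulators and partners of BIM were next compared. FOXO3, a forkhead factor known to activate BCL2L11, lay between 7.43 and 10.53 in the BCL2L11-low lines and between 5.12 in JVM2 and 10.12 in HBL-2 in the BCL2L11-present lines (difference 0.25 ± 0.91). FOXO1 gave 0.15 ± 0.74. MIR17HG, the host transcript of the miR-17-92 cluster whose microRNAs target BIM, lay between 6.66 and 8.37 in the BCL2L11-low lines. In the BCL2L11-present lines it lay between 6.84 and 11.47, the highest being HBL-2 (difference -1.25 ± 0.88). DYNLL1, a dynein light chain that holds BIM at microtubules, gave 0.81 ± 0.57. MYC had 15.12 in Jeko-1, 14.78 in Mino, 12.73 in SP-49, 13.57 in SP-53 and 15.48 in Z-138. The BCL2L11-present lines had 10.27 in UPN1, 12.13 in GRANTA519, 13.21 in HBL-2, 13.48 in MAVER-1, 13.67 in JVM2 and 13.86 in REC-1. Jeko-1, Mino and Z-138 exceeded every BCL2L11-present line while SP-49 and SP-53 did not (difference 1.87 ± 0.71, limma adjusted p = 0.98). None of the 19 genes of this list was called, and their median difference was 0.24.

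**Figure D5:**
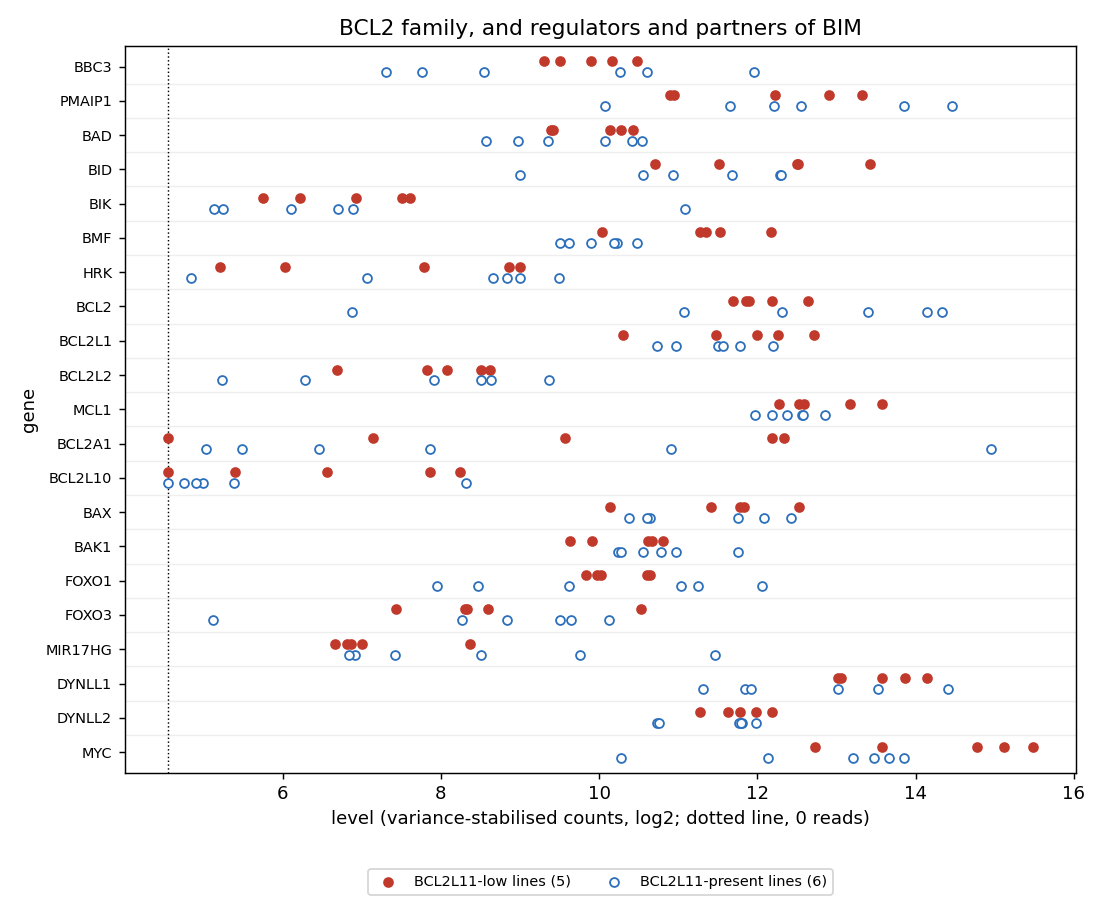
Levels of BCL2 family genes and of regulators and partners of BIM in each MCL line (variance-stabilised counts, log2), with filled points for the 5 BCL2L11-low lines above open points for the 6 BCL2L11-present lines. The groups overlap in every row, and BMF and MYC show the BCL2L11-low lines mostly to the right.

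The 9p21 region, which is often deleted in MCL, was set beside 2q13 by its RNA reads, and deletion was not tested. MTAP, which lies next to the cell cycle inhibitor genes CDKN2A and CDKN2B, had 1485 to 4231 reads in all 5 BCL2L11-low lines. It had 2 reads in GRANTA519 and 1 in MAVER-1 among the BCL2L11-present lines, against 947 to 2872 in the other 4. No MCL line had next to no reads of both MTAP and BCL2L11, but with so few lines this can arise by chance and was not tested. For CDKN2A the same did not hold, since SP-53 and Z-138 had next to no reads of both CDKN2A and BCL2L11. CDKN2A had 0 reads in SP-53, 1 in Z-138 and 18 in SP-49 but 7771 in Jeko-1 and 23048 in Mino. Of the BCL2L11-present lines, GRANTA519 and MAVER-1 had 0 reads, REC-1 had 5, HBL-2 137, JVM2 2313 and UPN1 6937. None of the 7 genes tested in this region was called.

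Wider programmes of the B cell gave no call either. The lists of p53 targets (20 genes tested, median difference -0.07), B-cell receptor signalling (15, 0.06), NF-kB targets (20, 0.10), B-cell identity (13, 0.01) and proliferation (15, 0.03) had no member past the threshold. Nor did the germinal centre genes (7 tested, -0.60), the plasma cell genes (8, -0.53) or the MCL markers (10, -0.05). CD22, an inhibitory co-receptor of B cells, had a difference of -1.77 ± 0.66 and the p53 target BTG2 of 1.31 ± 0.35. Both had a limma adjusted p of 0.98.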

How the data were processed

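The authors deposited variance-stabilised read counts per gene on a log2 scale, 31975 genes by 34 lines. Per the submitters' processing notes, STAR 2.5.3a, R 3.6.1, DESeq2 1.26.0 and GRCh38 were used, without a role for each; the read counter, annotation release and strand setting are not given in the sources used here. Reads of a gene and an antisense partner may therefore be mixed. Inverting the transform gave whole reads (tolerance 0.05) for 100% of values.

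A gene entered the tests if 3 or more of the 11 MCL lines lay over 1 log2 unit above the value of 0 reads (16321 genes). Groups were compared in R 4.3.3 by limma 3.58.1, its prior variance following the mean level, with Benjamini-Hochberg adjustment and a threshold of 0.05, and tables were made in Python 3.11.15. Positions came from RefSeq GRCh38.p14, matched by symbol for 24746 genes. The rule named BCL2L11, its neighbours within 3 Mb, the 12 largest differences each way that passed or, failing that, whose lines did not overlap, and the listed genes. The division, members and lists were chosen with earlier results of these data known. MAP3K13 neighbours, DDX60, TRIQK, FAM83H and SDR42E1 were chosen after their values were seen.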

Additional observations from a re-analysis of the deposited data

Results flagged for a closer look

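In 49 groups examined for the 24 named genes and BCL2L11, 6 held a line far from the rest of its group, measured as the gap to the nearest line over the range of the group. Chance alone flags about 1 in 20 groups. JVM2 was the line in 4 of them, all among the BCL2L11-present lines: high for MAP3K13 (0.654, level 10.01 against 8.98 next), for GCA (0.664, 11.91 against 9.54) and for DUBR (0.752, 7.56 against 6.48), and low for TTYH3 (0.70, 8.45 against 11.52). GRANTA519 was the single BCL2L11-present line with PDPN reads (1, level 5.44 against 4.55). Its ratio of 1 was fixed, because all the other BCL2L11-present lines had 0 reads. Among the BCL2L11-low units Mino was low for PAG1 (0.913, 6.23 against 8.34).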

How the results depend on the processing

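The count of genes past the threshold, 0, was recomputed under 24 alternatives. It became 1 with median-centred libraries, with quantile normalization and with a constant prior, each time MAP3K13 (-3.48, -3.43 and -3.36; adjusted p = 0.037, 0.043 and 0.033). Median-centring shifted the median difference of all genes by -0.12. The count became 7 with all 34 lines in the fit: PDPN, CD248, ADSS1, FAM131C, CD7, RTN4RL1 and TBXA2R, all higher in BCL2L11-low lines, of which CD7 made the count for listed genes 1. That fit shares its spread with the 23 other lines. Of these, 18 had no read of PDPN, 15 none of FAM131C and 8 none of CD248. Several of the other libraries were shallow, such as NU-DHL-1 with 2.55 M reads, so the absence of reads says less there. Leaving out each line in turn gave 0 to 1 calls, with 507 to 1281 genes at an unadjusted p below 0.05, fewest without Jeko-1 and most without JVM2; the single calls were PDPN without Mino and MAP3K13 without SP-49. The causes were not tested. Filters, a robust prior, limma-voom, SP-49 and SP-53 as separate lines, re-analysed lines only, and thresholds of 7 (UPN1 below) and 8 (UPN1 and JVM2 below) gave 0 calls; a threshold of 5.5 selects the same 5 lines and adds no information. No 2q13 neighbour was called under any alternative. No named gene reversed where tested. Of the 24 named differences, 17 moved by over 1.5 times with the threshold at 8, 2 at 7, 8 with limma-voom, 2 without JVM2 and 1 with re-analysed lines only. No paired analysis was possible because replicate numbers only follow accession order. Low-count genes near the lowest value have compressed differences.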

Other observations

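The gene next to MAP3K13 on chromosome 3 was looked at after its values were seen. EHHADH, a peroxisomal enzyme of fatty acid oxidation (chromosome 3, 185190624 to 185254049), had 0 reads in Jeko-1, SP-53 and Z-138, 5 in Mino and 23 in SP-49. The BCL2L11-present lines had 7 reads in REC-1, 13 in JVM2, 44 in GRANTA519, 123 in UPN1, 140 in HBL-2 and 140 in MAVER-1. The difference was -1.25 ± 0.32 (limma adjusted p = 0.98). EHHADH passed the filter on low values through the BCL2L11-present lines, so this p-value is descriptive. MAP3K13 itself covers 185282961 to 185489094. Other genes within 0.5 Mb, such as VPS8 (-0.34 ± 0.33), SENP2 (-0.52 ± 0.27) and TMEM41A (-0.41 ± 0.32), were expressed in all 11 MCL lines.

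SP-49 and SP-53 differed by more than 2 log2 units in 3 of the 24 named genes, PDPN (4.26), MAP3K13 (3.41) and ALKBH3 (4.64), with SP-49 higher in each. TRIQK, on the other hand, had 1 read in SP-49 and 0 in SP-53, as well as 0 in Mino, and at least 81 reads in the other 8 MCL lines.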
